A study of Mus musculus with 5 samples.

Results

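Expression of 8 genes of cholesterol synthesis and its control was followed in regulatory T (Treg) cells of mice with Malt1, a paracaspase of antigen receptor signalling, deleted or without protease activity. The genes were chosen by name, as rows whose symbol is Hmgcs1, Idi1, Fdps, Fdft1, Sqle, Lss, Srebf2 or Insig1, and each symbol had 1 row among the 38130 entries per library. All 8 were among the 11296 entries with a mean level of at least 1 over the 5 libraries, the set on which differences were computed. RNA was sequenced from sorted CD4+YFP+ cells of C57BL/6 mice in 5 libraries. KO, at 21 days, came from mice named Foxp3Cre-YFP /malt1fl/fl, in which Cre expressed with Foxp3 deletes Malt1 in Treg cells (1 library). KI, at 6 weeks, came from Foxp3Cre-YFP /malt1fl/C472A mice, with 1 floxed allele and 1 allele whose product is described in the labels as lacking protease activity (2 libraries, replicates 1 and 2). Wild type (WT) came from Foxp3-Cre-YFP reporter mice at 6 weeks (1 library) and at 21 days (1 library), so every group carried the Cre reporter. The labels do not say how many animals gave each library or that the KI libraries came from separate animals, so the spread between them may be technical.

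Cholesterol is built from acetyl-CoA through mevalonate, isoprenoid diphosphates, squalene and lanosterol. SREBP2, the product of Srebf2, is a membrane-bound transcription factor that turns on most enzymes of this route and sterol uptake when sterols in the endoplasmic reticulum are low. INSIG1 retains the SREBP escort protein SCAP in the endoplasmic reticulum when sterols are high, and the Insig1 gene is itself a target of SREBPs. The same route supplies farnesyl and geranylgeranyl groups for small GTPases, and Treg cells are known to depend on it for their suppressive function.

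Promoter sequences are shown for Hmgcs1, the enzyme gene at the entry of the route, for Idi1, the gene with the widest range of levels, and for Insig1, which differed in direction from the enzymes between the KI libraries. RefSeq promoters on GRCm38.p6 were found for 5 of the 8 genes, Hmgcs1, Idi1, Lss, Srebf2 and Insig1. The 250 bases before the RefSeq start, which need not be the start in the deposited files, were searched on both strands for TCACNCCAC (a sterol regulatory element, the site that SREBPs bind), CCAAT (the site of NF-Y, a common partner of SREBPs) and GGGCGG (a GC box). The printed windows are chr13:119690101-119690350, chr13:8885356-8885605 and chr5:28071162-28071411, all on the plus strand and written 5′ to 3′. Capitals mark matches to TCACNCCAC or CCAAT on either strand.
Hmgcs1: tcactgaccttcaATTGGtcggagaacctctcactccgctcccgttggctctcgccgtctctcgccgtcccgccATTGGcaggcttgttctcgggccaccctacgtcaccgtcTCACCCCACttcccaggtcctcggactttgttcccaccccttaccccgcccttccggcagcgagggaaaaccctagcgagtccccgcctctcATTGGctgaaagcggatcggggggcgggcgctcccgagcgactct
Idi1: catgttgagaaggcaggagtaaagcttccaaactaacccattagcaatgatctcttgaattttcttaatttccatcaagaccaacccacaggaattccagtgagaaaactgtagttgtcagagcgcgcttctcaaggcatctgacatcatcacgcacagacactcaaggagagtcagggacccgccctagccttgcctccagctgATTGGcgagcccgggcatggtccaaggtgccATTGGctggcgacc
Insig1: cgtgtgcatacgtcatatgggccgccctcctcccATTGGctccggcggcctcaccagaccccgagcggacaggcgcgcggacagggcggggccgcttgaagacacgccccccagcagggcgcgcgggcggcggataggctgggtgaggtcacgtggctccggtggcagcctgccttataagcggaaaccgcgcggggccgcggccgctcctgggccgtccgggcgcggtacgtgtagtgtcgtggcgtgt
TCACNCCAC was found in the Hmgcs1 window, beginning 137 bases before the start, and in none of the other 4, while 1.05% of 32851 promoters of this length hold it. CCAAT was found in all 5 windows, with 3 matches in Hmgcs1, 2 in Idi1 and 1 each in Lss, Srebf2 and Insig1, and 33.8% of all promoters hold it. GGGCGG was also found in all 5, and 32.7% of all promoters hold it. These matches describe letters in a window and were not tested as binding sites.

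Depth, estimated from the bounds that the files give with each value, was about 7900000 fragments in KO, 24400000 and 24100000 in KI, 7000000 in 6-week WT and 28100000 in 21-day WT. Depth therefore differs between each mutant and the WT of its age, and its part in the differences was not tested. Malt1 itself (ENSMUSG00000032688) had 17.6 scaled FPKM in KO against 27.0 in 21-day WT, and 55.9 and 37.8 in KI against 15.2 in 6-week WT. Its level in KO exceeded that in 6-week WT, so this gene-level value gives no check of the KO label, and a value summed over the gene need not reveal a deletion of some exons. All 7 Treg and T cell markers were present in each library, with Foxp3 at 30.5 in KO, 70.1 and 73.6 in KI, 39.5 in 6-week WT and 70.7 in 21-day WT. In KO, Il2ra, Ctla4 and Ikzf2 were below 21-day WT like Foxp3, and Cd3e, Cd4 and Tnfrsf18 above it. In both KI libraries Cd3e and Cd4 were below 6-week WT and the other Treg and T cell markers above it. The summed level of 7 myeloid markers was 60.6 in KO, 51.4 and 31.4 in KI, 144 in 6-week WT and 37.5 in 21-day WT. For 5 markers of plasmacytoid dendritic cells it was 9.78, 2.62 and 1.39, 64.7 and 4.99 in the same order of libraries, and for 6 B cell markers 8.80, 4.25 and 3.07, 23.6 and 17.7. Siglech, a defining marker of plasmacytoid dendritic cells, was listed at 0 in KI replicate 1 and had 16.8 in 6-week WT. All 3 sums were highest in 6-week WT. Markers of erythroid cells and platelets, and of CD8 T cells and thymocytes, summed to at most 22.5 and 14.4, also in 6-week WT. The sum of 5 NK cell markers was highest in KO instead, at 91.8, against 35.4 and 38.0 in KI, 38.6 in 6-week WT and 22.9 in 21-day WT. Nkg7 at 73.8 and Gzma at 14.9 made up most of the KO sum, and Klrb1c was also highest in KO, at 1.82. Klrd1 and Ncr1 were instead highest in 6-week WT, at 3.17 and 0.29, against 1.17 and 0.19 in KO. In such bulk RNA a lower level can mean fewer cells of a type or less RNA per cell, which cannot be told apart.

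Srebf2 (ENSMUSG00000022463, chromosome 15, 82147266 to 82205376, plus strand) was the most abundant of the 8 genes in each of the 5 libraries on the FPKM scale, which corrects for transcript length. It had 25.1 scaled FPKM in KO, with bounds of 23.6 and 26.5, against 38.3 in 21-day WT, with bounds of 37.1 and 39.4. The KI libraries had 26.2 and 35.1, against 33.5 in 6-week WT. The bounds lie 2 standard errors from each value and cover error within a library only. KO and KI replicate 1 were the lowest and had overlapping bounds, KI replicate 2 and 6-week WT overlapped each other, and 21-day WT lay above all others. The highest level was 1.53 times the lowest, the narrowest range among the 8 genes. The gene also contains the microRNA gene Mir33, which was listed at 0 in all 5 libraries.

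Insig1 (ENSMUSG00000045294, chromosome 5, 28071363 to 28078662, plus strand) spread the libraries widely. It had 8.12 scaled FPKM in KO, with bounds of 6.91 and 9.33, against 17.7 in 21-day WT, with bounds of 16.7 and 18.7. KI had 21.8 in replicate 1 (bounds 20.6 and 23.1) and 9.46 in replicate 2 (bounds 8.70 and 10.2), against 10.8 in 6-week WT (bounds 9.28 and 12.2). The libraries split into a high pair, KI replicate 1 and 21-day WT, and a low set of KO, KI replicate 2 and 6-week WT. Within the low set, KI replicate 2 had bounds that overlapped those of both neighbours. The highest level was 2.69 times the lowest.

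The enzymes are described in the order of the route. Hmgcs1 (ENSMUSG00000093930, chromosome 13, 119690462 to 119708086, plus strand), whose enzyme condenses acetoacetyl-CoA and acetyl-CoA into HMG-CoA, had 6.87 scaled FPKM in KO against 8.09 in 21-day WT. In KI it had 7.50 and 11.9, against 9.31 in 6-week WT, so the KI libraries lay on either side of WT. KI replicate 2 was above every other library beyond its bounds (11.2 and 12.7), and the other 4 libraries each overlapped the next in order.

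Idi1 (ENSMUSG00000058258, chromosome 13, 8885501 to 8892451, plus strand) encodes the isomerase that turns isopentenyl into dimethylallyl diphosphate. It had 1.86 scaled FPKM in KO against 4.16 in 21-day WT, and 2.29 and 5.77 in KI against 4.80 in 6-week WT. KO and KI replicate 1 formed a low pair, and the ratio of highest to lowest, 3.10, was the widest of the 8 genes. The bounds in 6-week WT ran from 2.57 to 7.03 and rest on about 18 fragments, so that they overlap those of all 4 other libraries. The low KO level, with bounds of 0.975 and 2.74, also rests on about 18 fragments, and that of KI replicate 1 on about 35. The ratio of 3.10 is therefore imprecise.

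Fdps (ENSMUSG00000059743, chromosome 3, 89093592 to 89101967, minus strand) makes farnesyl diphosphate, the branch point to sterols and prenyl groups. It had 13.3 scaled FPKM in KO (bounds 11.2 and 15.4) against 9.07 in 21-day WT (bounds 8.02 and 10.1). KI had 6.63 (bounds 5.64 and 7.62) and 12.7 (bounds 11.4 and 13.97), against 16.5 in 6-week WT (bounds 13.97 and 18.9). KI replicate 1 was the lowest library and 21-day WT the next, each apart from its neighbours, while KO overlapped both KI replicate 2 and 6-week WT. The bounds of KI replicate 2 and 6-week WT met at 13.97.

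Fdft1 (ENSMUSG00000021273, chromosome 14, 63145153 to 63177793, minus strand) is squalene synthase, the first enzyme committed to sterols. It had 6.72 scaled FPKM in KO against 5.65 in 21-day WT, with overlapping bounds. KI had 4.32 and 6.56, with upper bounds of 4.84 and 7.18, against 9.11 in 6-week WT with a lower bound of 7.87. Both KI libraries were therefore below WT of their age beyond the bounds, and 6-week WT was above each of the other 4 libraries. The gene overlaps 771 nt of Ctsb on the opposite strand, and without a stated strand setting reads there cannot be separated. Ctsb, a cathepsin, had 37.6 in KO, 30.9 and 34.9 in KI, 54.7 in 6-week WT and 43.2 in 21-day WT, and its part in the Fdft1 values was not tested.

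Sqle (ENSMUSG00000022351, chromosome 15, 59315077 to 59331192, plus strand) encodes squalene epoxidase, a rate-limiting step after squalene. It had 5.88 scaled FPKM in KO against 5.18 in 21-day WT, and 3.77 and 6.01 in KI against 6.87 in 6-week WT. KI replicate 1 was the lowest and lay apart from the other 4 libraries, each of which overlapped its neighbour in order. Lss (ENSMUSG00000033105, chromosome 10, 76531588 to 76557138, plus strand), which closes the sterol rings to give lanosterol, had levels as low as those of Idi1. It had 3.18 in KO against 2.25 in 21-day WT, and 2.45 and 3.21 in KI against 3.63 in 6-week WT. All neighbours in that order had overlapping bounds, which correspond to 8 to 32 fragments per library, so the libraries cannot be ordered for Lss at this depth. In the GENCODE M21 annotation Lss overlaps an antisense gene, 4930483K19Rik, which had at most 0.147 scaled FPKM. Hmgcs1 overlaps the antisense gene Gm48342 and Fdps the gene Gm43738 on its own strand. Neither had a matched entry among the deposited values, so the Hmgcs1 and Fdps levels may include reads from them. The same holds for Idi1 with Gm48574 and for Srebf2 with Gm49502.

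**Figure D1:**
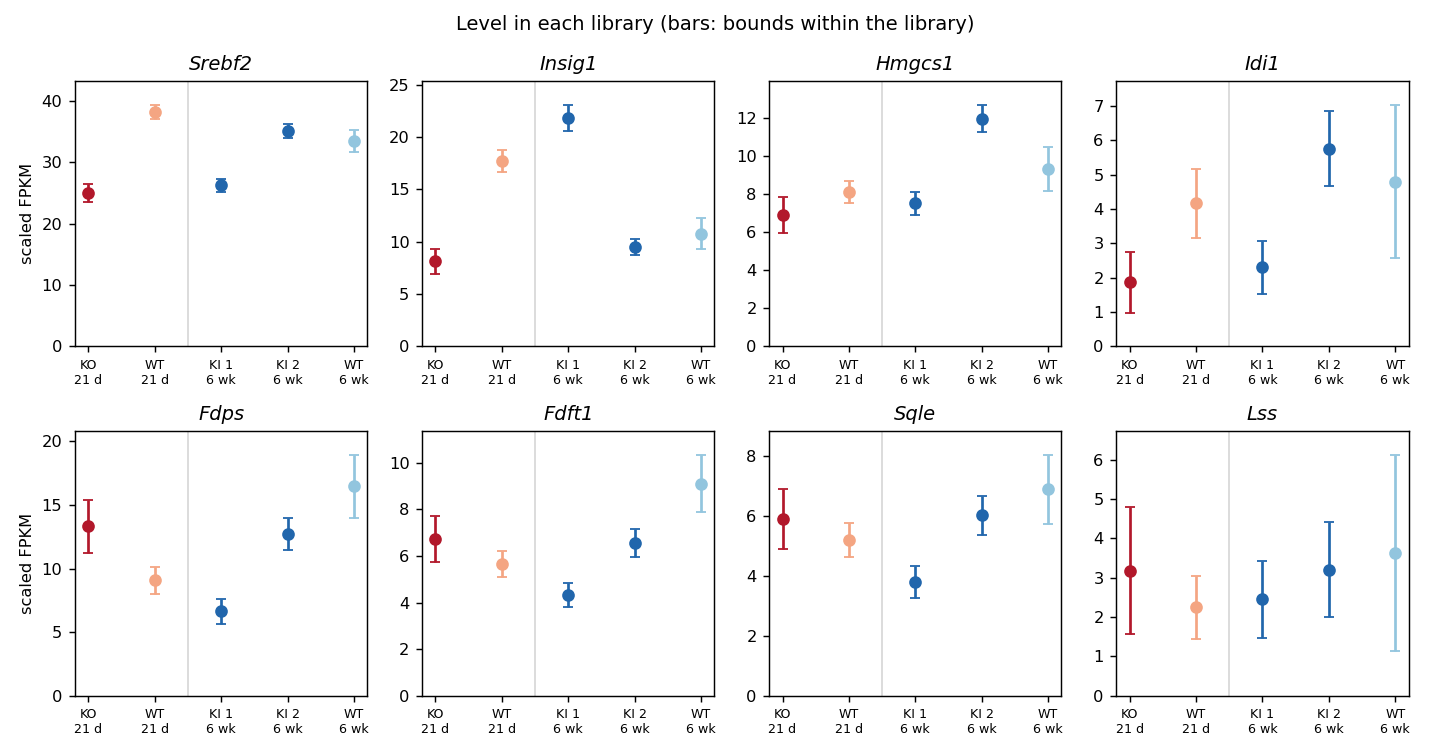
Scaled FPKM (y axis, from 0) of each of the 8 genes in the 5 libraries (x axis, each mutant left of the WT of its age); points are single libraries and bars the bounds within a library. KI replicate 1 is at or near the bottom in the enzyme panels and at the top for Insig1, at 21.8.

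In KI against 6-week WT, the comparison at matched age, none of the 8 genes was called. Of the 8, 1, Fdft1, lay below WT beyond the bounds in both KI libraries. KI also has 1 floxed allele, so lost protease activity and the loss of 1 gene copy cannot be told apart. Fdps, Fdft1, Sqle and Lss were lower in both KI libraries, Hmgcs1, Idi1, Srebf2 and Insig1 were split between the replicates, and no gene was higher in both. The share of all genes on 1 side in both KI libraries is not given, so such counts, here and for the lists below, have no background. Differences are given as log2(scaled FPKM + 1), a scale on which a low gene's change is understated. Fdps lay at -0.77 (SE 0.48), with -1.19 and -0.35 in replicates 1 and 2, and averaged 9.67 ± 4.30 scaled FPKM in KI (SD, n = 2). Fdft1 lay at -0.67 (SE 0.39), with -0.93 and -0.42, and averaged 5.44 ± 1.58 (SD, n = 2). Sqle lay at -0.44 (SE 0.40), Lss at -0.28 (SE 0.32) and Srebf2 at -0.14 (SE 0.29). Hmgcs1 lay at 0.03 (SE 0.40), and at -0.24 with FPKM as deposited, where the median over all genes was -0.26. Insig1 lay at 0.40 (SE 0.59) and Idi1 at -0.30 (SE 0.58). The standard error exceeds the difference for Insig1, Idi1, Lss, Srebf2 and Hmgcs1.

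By limma with Benjamini-Hochberg adjustment over all 11296 genes, 0 of the 8 passed 0.05, and the lowest adjusted p was 0.568, for Fdft1. With 1 residual degree of freedom the fit called 0.00885% of all genes, which is 1 gene, and 1211 genes had an unadjusted p under 0.05, none of them among the 8. A 2-fold difference in both KI libraries was reached by 0 of the 8, beside 5.81% of all genes. Bounds were apart from WT in both KI libraries for 1 of 8 (Fdft1, lower), beside 29.1% of all genes, and 13.0% that were lower. The median of the 8 was -0.29, with -0.57 and -0.15 in replicates 1 and 2, beside 0.00 over all genes. The marker sums of myeloid, plasmacytoid dendritic and B cells were all highest in 6-week WT, at 144, 64.7 and 23.6, and their part in these differences was not tested.

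Set against 21-day WT, whose age differs, these 4 enzymes no longer lay on 1 side. Fdps lay at 0.02, Fdft1 at -0.07, Sqle at -0.10 and Lss at 0.23, and the median of the 8 was -0.08. Each of the 4 enzymes was higher in KI replicate 2 than in 21-day WT, by 0.45, 0.19, 0.18 and 0.37. KI replicate 1 was lower than it for 3 of the 4, with Lss at 0.08. In that comparison 1 of 8 genes had bounds apart in both KI libraries (Srebf2, lower), beside 12.8% of all genes and 6.95% lower, and 0 passed 2-fold in both, beside 1.19%. The direction of Fdps and Lss in KI therefore depends on which WT library is the control.

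In KO against 21-day WT, Insig1, Idi1 and Srebf2 lay below WT, and Fdps above it, beyond the bounds. Insig1 lay at -1.04 on the log2(scaled FPKM + 1) scale, a level 0.458 times that of WT. On that scale it was the only 1 of the 8 past 2-fold, beside 14.3% of all genes and 8.14% lower. Idi1, a lower gene, had a level 0.446 times that of WT but lay at -0.85 with the pseudocount of 1, and at -1.12 with a pseudocount of 0.1. Srebf2 lay at -0.59 (0.656 times) and Hmgcs1 at -0.21, or 0.13 with FPKM as deposited. Fdps lay at 0.51 (1.47 times), Lss at 0.36, Fdft1 at 0.22 and Sqle at 0.15. The bounds were apart for 4 of 8, 1 higher and 3 lower, beside 51.7% of all genes, 24.5% higher and 27.2% lower. The median of the 8 was -0.03 beside 0.02 over all genes, with 4 of the 8 above WT and 4 below. The summed levels of proliferation genes and of NK cell markers were also above 21-day WT in KO, at 472.3 against 300.5 and 91.8 against 22.9. Of the 3 NK cell markers with a level of at least 1, Nkg7 and Gzma were higher and Klrd1 lower (1.17 against 1.25). Of the Treg and T cell markers, Ikzf2 (15.4 against 68.0), Ctla4 (118 against 395.5), Foxp3 (30.5 against 70.7) and Il2ra (76.7 against 93.4) were lower. Cd3e, Cd4 and Tnfrsf18 were higher. The part of these lists was not tested. There was 1 library per group, so these differences have no replicate check, and the 2-fold call for Insig1 is lost with FPKM as deposited, where it lay at -0.68 beside a median of 0.35 over all genes. Against 6-week WT all 8 genes were lower in KO, with a median of -0.38, and Fdps, Fdft1, Sqle and Lss changed direction, at -0.29, -0.39, -0.19 and -0.15. There 3 of 8 had bounds apart, all lower (Hmgcs1, Fdft1 and Srebf2), beside 22.1% of all genes and 12.0% lower, and 1 was past 2-fold (Idi1, at -1.02), beside 5.59% and 2.29% lower.

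The WT libraries also differed from each other. In 6-week WT against 21-day WT, all 6 enzymes were higher and Srebf2 and Insig1 lower. Fdps lay at 0.79 (16.5 against 9.07 scaled FPKM), Fdft1 at 0.60 and Lss at 0.51, and Insig1 lay at -0.67. Bounds were apart for 4 of 8, Fdps and Fdft1 higher and Srebf2 and Insig1 lower, beside 41.7% of all genes, 18.6% higher and 23.0% lower, and 0 were past 2-fold, beside 8.56%. The median of the 8 was 0.26 beside 0.01 over all genes. With FPKM as deposited Srebf2 turned to higher and the median over all genes was 0.35. Each WT library serves as control in more than 1 of these comparisons, so their values are not independent.

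**Figure D2:**
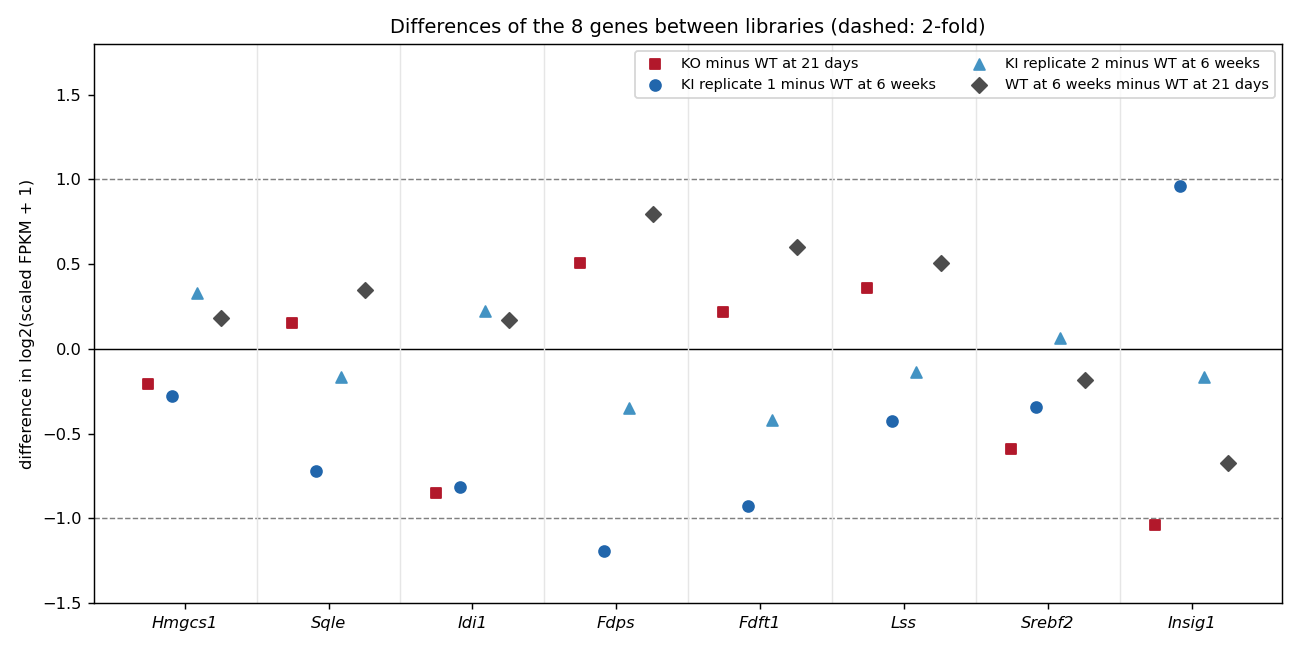
Difference in log2(scaled FPKM + 1) (y axis) for each of the 8 genes (x axis) in 4 pairs of libraries, with dashed lines at 2-fold. Only Fdps in KI replicate 1 (-1.19) and Insig1 in KO (-1.04) lie past a dashed line.

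The KI libraries, which share genotype and age, differed from each other in nearly all of these genes. All 6 enzymes and Srebf2 were lower in KI replicate 1 than in replicate 2, and Insig1 was higher. Insig1 was 2.31 times as high in replicate 1, at 21.8 against 9.46, while Idi1 had 2.29 against 5.77 and Fdps 6.63 against 12.7. Bounds were apart for 7 of 8 genes, all but Lss, with 1 higher and 6 lower, beside 47.7% of all genes, 23.4% higher and 24.3% lower. A 2-fold difference was passed by 2 of 8 (Insig1 higher and Idi1 lower), beside 6.59% of all genes, 4.14% higher and 2.44% lower. The median of the 8 was -0.53 beside 0.00 over all genes, and all 8 kept their side with FPKM as deposited and with upper quartile scaling. With FPKM as deposited Insig1 lay at 0.92, no longer past 2-fold, and Fdps at -1.04, past it, beside Idi1 at -1.19.

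The summed level of the 6 enzymes and that of Insig1 can be compared within a library, where the scaling cancels. The sum was 37.8 scaled FPKM in KO, 27.0 and 46.2 in KI, 50.2 in 6-week WT and 34.4 in 21-day WT. Divided by Insig1 it gave a ratio of 4.66 in KO against 1.94 in 21-day WT, and of 1.23 and 4.88 in KI against 4.67 in 6-week WT. KO, KI replicate 2 and 6-week WT had almost the same ratio, and KI replicate 1 and 21-day WT a lower one. Insig1, the divisor, splits the libraries in this way by itself, so the ratio is not a separate pattern. The sum was also lowest in KI replicate 1 and 21-day WT, but KO, at 37.8, was near 21-day WT, at 34.4. The low ratios were in the 2 deepest libraries, at 28100000 and 24400000 fragments, with KI replicate 2 next at 24100000, and the part of depth was not tested. The split was seen after the values were known and is a description with no test.

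Genes of cell division differed between the same libraries. The summed level of 15 proliferation genes was 472.3 scaled FPKM in KO against 300.5 in 21-day WT, and 306 and 608 in KI against 364 in 6-week WT. All 15 were lower in KI replicate 1 than in replicate 2, beyond the bounds, with a median of -1.24, and 11 were past 2-fold. Myeloid markers also differed between the KI libraries, with sums of 51.4 in replicate 1 and 31.4 in replicate 2. Cst3, at 26.1 and 26.3, made up much of both sums. Of the 6 with a level of at least 1, 5 were higher in replicate 1, among them Lyz2 at 14.98 against 2.90, and 1, Cst3, was lower. Itgam, below that level, was also lower, at 0.24 against 0.58. The part of either list in the difference of the sterol genes was not tested.

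**Figure D3:**
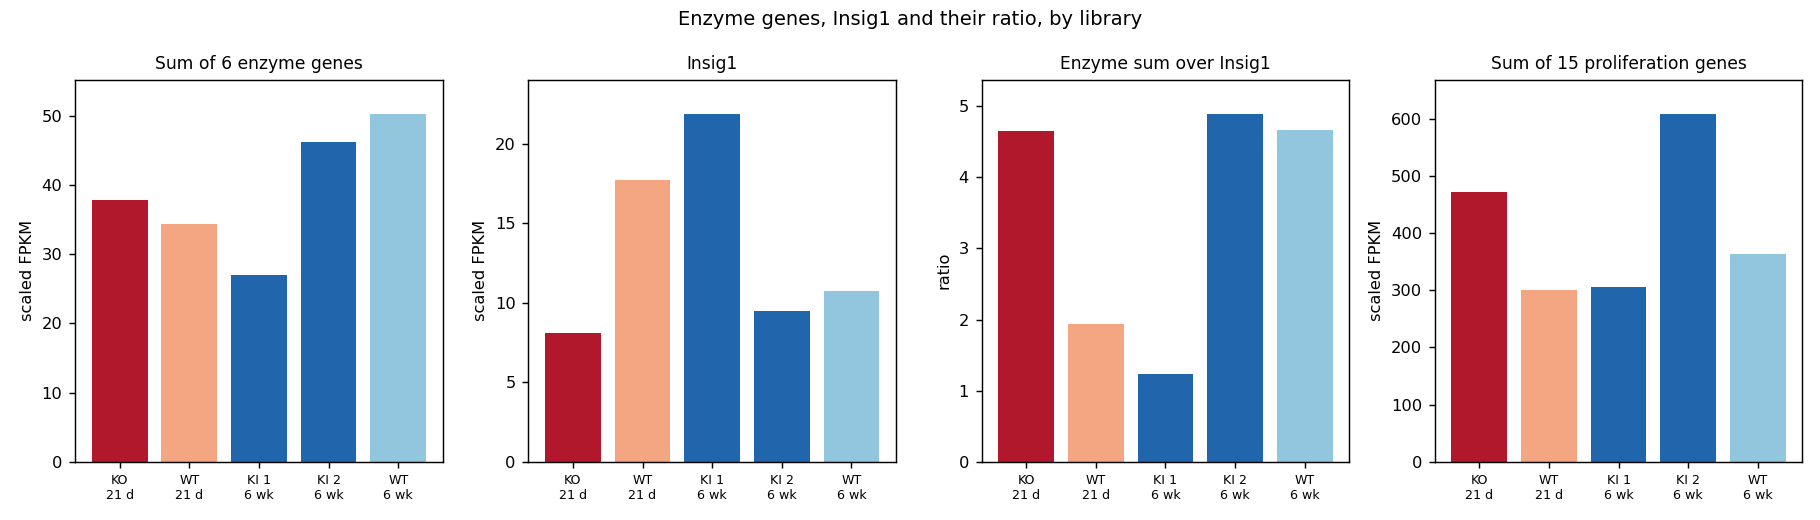
Bars from 0 for each library (x axis, each mutant left of the WT of its age): summed scaled FPKM of the 6 enzyme genes, scaled FPKM of Insig1, the ratio of that sum to Insig1, and summed scaled FPKM of 15 proliferation genes. The ratio is 4.66 to 4.88 in KO, KI replicate 2 and 6-week WT, and 1.23 and 1.94 in KI replicate 1 and 21-day WT.

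Of 13 further enzymes, all with a level of at least 1, 7 were lower in both KI libraries than in 6-week WT and 1 was higher, with a median of -0.23. None passed limma (lowest adjusted p = 0.473), and 0 were past 2-fold in both KI libraries. Msmo1, a C4-methylsterol oxidase matched by its gene ID, had 5.10 and 8.79 scaled FPKM in KI against 15.1 in 6-week WT, a difference of -1.06 (SE 0.43, adjusted p = 0.488 by limma). 21-day WT had 5.87, so the high value was that of 6-week WT. Tm7sf2, a sterol reductase, had 3.31 and 4.11 in KI against 8.02 in 6-week WT (-0.94, SE 0.33, adjusted p = 0.473 by limma) and 5.73 in 21-day WT. In KO 11 of the 13 were above 21-day WT and 2 below, with a median of 0.21. Acat2, the cytosolic thiolase that makes acetoacetyl-CoA, had 10.3 in KO against 3.97 in 21-day WT, the only 1 of the list past 2-fold, and 6.19 in 6-week WT. Pmvk, phosphomevalonate kinase, had 8.01 in KO against 5.01. In 6-week WT against 21-day WT 11 of the 13 were higher and 2 lower, with a median of 0.41, and with 21-day WT as the control the KI median was 0.10. Between the KI libraries 11 of the 13 were lower in replicate 1 and 2 were higher, with a median of -0.49.

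Among 9 genes that control SREBP processing, 3 were higher and 4 lower in both KI libraries than in 6-week WT, with a median of -0.04, and none passed limma (lowest adjusted p = 0.552). Insig2, the paralog of Insig1, had 6.46 and 5.76 in KI against 9.54 in 6-week WT (-0.57, SE 0.30), and 6.26 in KO against 3.83 in 21-day WT (0.59). In KO against 21-day WT Insig2 and Insig1 thus lay on opposite sides of 0. Mbtps2, the site-2 protease that releases SREBPs from the membrane, had 5.58 and 7.53 in KI against 3.87 in 6-week WT (0.62, SE 0.35). Rnf139, a ubiquitin ligase of the endoplasmic reticulum, had 8.80 in KO against 14.2 in 21-day WT. In KO the list had 3 genes above and 6 below 21-day WT, none past 2-fold, with a median of -0.21.

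Of 11 genes for sterol uptake and transport, 10 had a level of at least 1, and 4 were higher and 5 lower in both KI libraries than in 6-week WT (median -0.09, lowest adjusted p = 0.452 by limma). Gramd1a, which moves cholesterol from the plasma membrane to the endoplasmic reticulum, had 58.8 and 43.8 in KI against 109 in 6-week WT (-1.09, SE 0.29), with 57.1 in KO and 58.6 in 21-day WT. Lipa, the lysosomal lipase that frees cholesterol from esters, had 12.3 in KO against 22.9 in 21-day WT (-0.85), and 11.4 and 17.2 in KI against 25.4 in 6-week WT (-0.82, SE 0.35). For Lipa the 3 mutant libraries all lay below both WT libraries, a pattern seen after the values were known. The sum of 6 B cell markers split them in the same way, at 8.80 in KO and 4.25 and 3.07 in KI. It was 23.6 in 6-week WT and 17.7 in 21-day WT. The part of B cell RNA in Lipa was not tested, and the share of all genes with this pattern was not counted. Gramd1b, a relative of Gramd1a, had 16.7 in KO against 27.5 in 21-day WT. In KO 4 of the 10 lay above and 6 below 21-day WT, with a median of -0.13.

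Of 9 genes of cholesterol efflux, oxysterols and esters, 6 had a level of at least 1, and 1 was higher and 1 lower in both KI libraries (median -0.11, lowest adjusted p = 0.561 by limma). Apoe, an apolipoprotein made mostly by macrophages in lymphoid tissue, had 23.5 and 4.48 in KI against 41.4 in 6-week WT (-1.87, SE 1.04), and 14.8 in KO against 8.29 in 21-day WT. The myeloid marker Lyz2 ordered the 5 libraries in the same way, with 9.06 in KO, 14.98 and 2.90 in KI, 25.9 in 6-week WT and 3.77 in 21-day WT. Of the other myeloid markers, Tyrobp and Csf1r shared this order, and Cst3, Fcer1g, Cd68 and Itgam did not. Cst3 was lowest in KI replicate 1, at 26.1, and Fcer1g in KO, at 0.21. The part of myeloid RNA in Apoe was not tested. Soat1, which esterifies cholesterol, had 6.27 and 9.92 in KI against 5.91 in 6-week WT (0.37, SE 0.41), and 3.79 in KO against 5.86 in 21-day WT. Between the KI libraries 5 of the 6 were higher in replicate 1, with a median of 0.95 and 2 past 2-fold. Among these, named after their values were seen, was Abca1, a sterol exporter induced by liver X receptors, at 5.86 in replicate 1 and 0.890 in replicate 2. Abca1 was at 1.78 in KO, 0.944 in 6-week WT and 1.15 in 21-day WT, and the part in it of the myeloid RNA, which also differed between the KI libraries, was not tested. In KO 5 of the 6 lay above and 1 below 21-day WT (median 0.32).

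Of 13 genes for prenylation, dolichol and ubiquinone, 5 were higher and 4 lower in both KI libraries (median 0.09, lowest adjusted p = 0.460 by limma), and in KO 10 were above and 3 below 21-day WT (median 0.27). Pggt1b, a subunit of the enzyme that attaches geranylgeranyl groups to proteins, had 4.77 and 7.27 in KI against 2.77 in 6-week WT (0.87, SE 0.39), but 2.53 in KO against 4.53 in 21-day WT (-0.65). Rabggtb, of the Rab transferase, had the opposite signs, with 12.7 and 12.1 in KI against 21.9 in 6-week WT (-0.77, SE 0.25), and 19.5 in KO against 12.2 in 21-day WT (0.63). Of 13 fatty acid genes 10 had a level of at least 1, of which 5 were higher and 3 lower in both KI libraries (median 0.07, lowest adjusted p = 0.516 by limma). Acss2, which makes acetyl-CoA from acetate, had 11.95 and 9.68 in KI against 16.3 in 6-week WT, and Gpam, of glycerolipid synthesis, 1.17 and 1.54 against 0.640. In KO 5 of the 10 were above 21-day WT and 5 below (median 0.00), with Fasn, fatty acid synthase, at 24.4 against 13.96 and Scd2, a desaturase, at 31.2 against 18.2. Fasn had 24.4 in 6-week WT, the same level as in KO. Between the KI libraries the medians of these lists were 0.11 and -0.02, beside -0.49 for the further sterol enzymes and -0.53 for the 8 genes.

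Proliferation genes were not called in KI either. Of the 15, 2 were higher in both KI libraries and 0 lower (median 0.23, with -0.16 and 0.84 in replicates 1 and 2, lowest adjusted p = 0.662 by limma). Bub1, a mitotic checkpoint kinase, had 2.38 and 6.99 in KI against 1.99 in 6-week WT, and Ccna2, cyclin A2, had 9.96 and 31.0 against 9.80. In KO all 15 were above 21-day WT, 6 past 2-fold (median 0.84). Cdk1, the mitotic kinase, had 27.8 in KO against 5.91 in 21-day WT, and Aurkb, a mitotic kinase of the chromosomal passenger complex, 14.5 against 4.88.

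**Figure D4:**
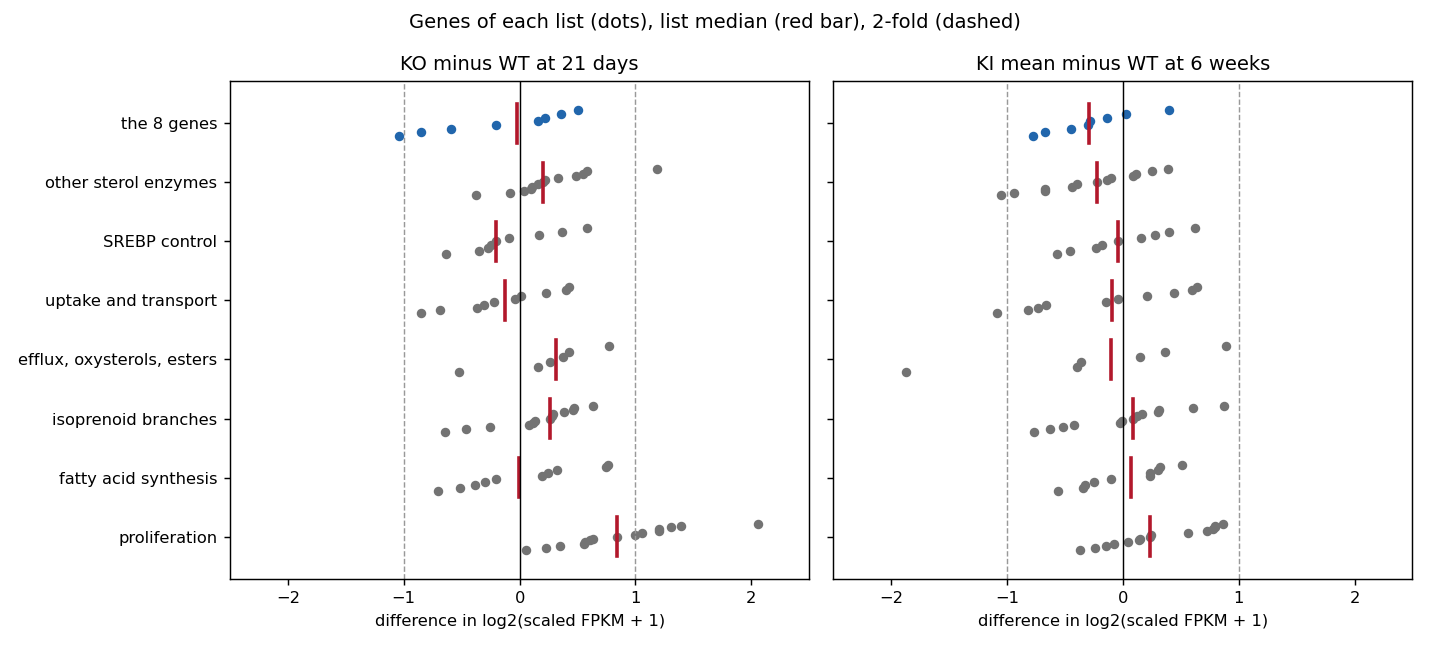
Difference in log2(scaled FPKM + 1) (x axis) of each gene with a level of at least 1 (dots) in the 8 genes and 7 further lists (rows), with red bars at the list medians, for KO against 21-day WT (left) and the KI mean against 6-week WT (right). The rows of the 8 genes and of the other sterol enzymes have medians of -0.29 and -0.23 in KI, and the proliferation row has 0.84 in KO.

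Likeness of profile was measured as the root mean square distance, over the 5 libraries, between a gene's centred log2 level and the mean centred profile of the 8 genes. That mean profile was -0.17 in KO, -0.24 and 0.15 in KI, 0.23 in 6-week WT and 0.01 in 21-day WT. The members lay at distances from 0.15 (Srebf2) to 0.60 (Insig1), so Insig1 was the member least like the rest. The 6 nearest protein-coding genes outside the lists were Ppp2r3c (0.034), AU040320 (0.043), Lfng (0.0435), Pepd (0.049), Rassf2 (0.049) and Rpap1 (0.052). Ppp2r3c, a regulatory subunit of protein phosphatase 2A, had 4.76 scaled FPKM in KO, 4.39 and 6.29 in KI, 6.26 in 6-week WT and 5.23 in 21-day WT. These genes lay closer to the mean profile than any of the 8, and they were chosen for that closeness.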

How the data were processed

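RNA of sorted CD4+YFP+ Treg cells was measured in 5 libraries of 4 groups, taken from the labels. Per the submitters' processing notes the authors used CASAVA, HISAT2 2.1.0 and Cufflinks 2.2.1 on build GRCm38, with no order or settings given. The deposited values are gene-level FPKM with a lower and an upper bound, per the file headers. The sources used here do not give the annotation release, the strand setting or the read type.

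Each library was scaled by its median ratio to the geometric mean over libraries (factors of 1.145 in KO, 0.868 and 1.013 in KI, 1.15 in 6-week WT, 0.876 in 21-day WT), over 9874 genes at 1 or more in all libraries. Starts in the files count from 0, and 1 was added. Depth came from the bounds of GENCODE M21 genes with 1 transcript, with the fragment number set equal to the squared ratio of value to standard error, and it is approximate. For KI and 6-week WT a two-sided limma test (limma 3.58.1 under R 4.3.3, with trend) was run on log2(scaled FPKM + 1) of genes with a mean of at least 1, with Benjamini-Hochberg adjustment. The KI pair gives its 1 residual degree of freedom, and its spread also stands for that of WT. The fit was run on simulated data with normal noise, whose spread left out the widest differences of the KI pair. The only condition set was that simulated sizes of change were returned. That run does not show how often the fit misses or wrongly calls genes in these data. Comparisons with 1 library per group have no test. "Bounds apart" means that the scaled bounds do not overlap. The named genes are the 8, Malt1, per list the 2 largest differences in KI with 1 sign in both libraries and the 2 largest in KO, and the 6 nearest profiles. The genes and lists were chosen with earlier results of these data known. Alternatives were other scalings, another pseudocount, no filter, other controls, leaving out each KI library, limma without trend and, added later, protein-coding genes alone.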

Additional observations from a re-analysis of the deposited data

Results flagged for a closer look

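For 4 of the 8 genes both KI libraries lay below WT of their age while KO lay above WT of its own age, a pattern shown by 27.9% of all genes tested. Only for Fdps were the KO bounds apart from those of 21-day WT, and only for Fdft1 were the bounds of both KI libraries apart from those of 6-week WT. For Lss the bounds of neighbouring libraries all overlapped. On the log2 scale Fdps lay at 0.51 in KO, and at -1.19 and -0.35 in KI replicates 1 and 2. Fdft1 lay at 0.22 in KO, and at -0.93 and -0.42 in KI. Lss lay at 0.36 in KO, and at -0.42 and -0.14 in KI. Sqle lay at 0.15 in KO, and at -0.72 and -0.17 in KI. The difference between the genotypes was not tested, since KO and both controls have 1 library each and age differs with genotype, and these genes were higher in 6-week WT than in 21-day WT.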

How the results depend on the processing

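Of 80 alternative values of the 8 genes in KI against 6-week WT, 72 kept their direction. Those without a filter, over protein-coding genes alone and without trend repeat the main difference, so their direction could not turn. None of the alternative values with a test passed 0.05, and the values that leave out a KI library have no test. The directions that turned were those of Hmgcs1 with FPKM as deposited (-0.24), of Fdps (0.023), Lss (0.23) and Insig1 (-0.28) with 21-day WT as the control, and, leaving out 1 KI library, of Hmgcs1 (-0.28 to 0.33), Idi1 (-0.82 to 0.22), Srebf2 (-0.34 to 0.067) and Insig1 (-0.17 to 0.96). The median of the 8 in KI ran from -0.57 to -0.15 without a KI library and stayed negative in the other alternatives. In KO it was -0.03, 0.31 with FPKM as deposited, where the median of all genes was 0.35, and -0.38 with 6-week WT as the control.

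Genes called by limma in KI numbered 1, 0 with upper quartile scaling, 50 with a pseudocount of 0.1, 0 without a filter, 15 over protein-coding genes alone, 0 with 21-day WT as the control and 0 without trend. Leaving out a KI library leaves that fit no residual degrees of freedom, so it has no value there. Genes past 2-fold in KI numbered 656, 1055 with a pseudocount of 0.1, 384 over protein-coding genes, 134 with 21-day WT as the control, and 1260 to 1492 with a single KI library. In KO they numbered 1613 (693 higher and 920 lower), 632 with 6-week WT as the control, and 1526 higher and 483 lower with FPKM as deposited. Between the WT libraries they numbered 967, 1498 with a pseudocount of 0.1 and 525 over protein-coding genes. In KI the split was 340 higher and 316 lower, and 211 and 545 with FPKM as deposited. Between the WT libraries it was 382 and 585, and 997 and 330 with FPKM as deposited. The causes of these moves were not tested. No paired analysis was possible because the groups compared share fewer than 2 replicate numbers. Depth limits Lss and Idi1 most, at 8 to 32 and 18 to 110 fragments per library.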
